A study of Beta vulgaris with 6 samples.

Results

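Among the probes of a custom sugar beet expression array, 117 gave a higher relative expression level in the shoot apical meristem of 3 bolting-resistant genotypes than in that of 3 bolting-sensitive genotypes, while remaining measurable in both groups. They were selected on these very values. A probe drawn from public sequence databases (a P-named probe) entered if its signal was well above background on all 8 arrays, if the mean of the bolting-resistant genotypes exceeded that of the bolting-sensitive genotypes by more than 1 on the log2 scale (2-fold), and if its lowest bolting-resistant genotype lay above its highest bolting-sensitive genotype. Of the 53752 probes on the array, 29094 were P-named, 19812 of these were well above background on all 8 arrays, and 120 of the 19812 (0.606%) met the rule. Of the 120, 3 probes (P20370, P1077 and P22559) were set aside by name, which leaves the 117 described here. The difference between the groups chose these probes, so it is given as a description, without a test.

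Biennial sugar beet stays vegetative in its first season, and prolonged cold (vernalization) makes the shoot apical meristem competent to elongate a flowering stem, which growers know as bolting. Genotypes differ in how much cold they require, and those that do not bolt after a given exposure are called bolting-resistant. The meristem is the small dome of dividing cells at the shoot tip from which the stem, leaves and flowers arise, and here it was dissected directly at the end of the cold.

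Genotypes 1, 4 and 7, in the numbering of the sample labels, formed the bolting-resistant group and genotypes 2, 3 and 5 the bolting-sensitive one, all of biennial Beta vulgaris altissima, and the study classed them by how readily their plants bolted after cold. Plants of both groups were grown for 8 weeks at 22 °C with 16 h of light and then held for 9 weeks at 4 °C, and the RNA of 1 meristem per genotype was labelled with Cy3. Duplicate arrays (2 each) of genotypes 7 and 3 were averaged, and the other genotypes had 1 array, so the replicates are the 3 genotypes of a group and the spread between them includes both genotype and plant. A value below is a relative expression level: the log2 intensity of the probe minus the 75th percentile of log2 intensity on its array, so that 0 is the level of that percentile and 1 unit is a doubling. Where 3 values follow each other, they are those of genotypes 1, 4 and 7 for bolting-resistant and of genotypes 2, 3 and 5 for bolting-sensitive genotypes. Levels of different probes are not compared with each other, since probes differ in how strongly they bind. Fewer cells of a type and less RNA per cell cannot be told apart in such bulk RNA.

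All 8 arrays were read in 1 scan of 1 slide. Their 75th percentile lay between 288.4 and 417.7 intensity units for bolting-resistant genotypes and between 345.2 and 422.6 for bolting-sensitive genotypes. The software marked 42.6% to 45.0% of the spots of an array as well above background and 0 as saturated. The identity of the meristem could not be checked against its own marker genes, which were not paired with probes here.

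Names came from the study's supplementary probe table, which lists 58 of the 117 probes by the accession of the expressed sequence tag they were drawn from. Of these, 42 carry a description after an Arabidopsis gene and 49 a sugar beet gene model (38 different models), so that 51 have a description, a gene model or both, and 7 only an accession. The other 59 are known here by probe name alone. The study drew up that table from these same arrays, so a name in it is not independent evidence of a difference. Directions below are those of the deposited signals, and the table's headings were not used, since they place some of these probes, such as P20359, with those higher in bolting-sensitive genotypes. Of 96 accessions and gene models looked up in a table of RefSeq genes, 0 were found there, and neither sequence nor genome position of any probe was available to print.

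The differences ran from 1.00 (2.01-fold) to 5.17 (35.9-fold) on the log2 scale, with a median of 1.35 (2.55-fold), against a median of 0.0071 over all 19812 probes. The top value is a difference of log means, and as a log2 ratio of linear means the same probe, P963, differed by 3.25. In all, 77 probes differed less than 3-fold, 29 between 3-fold and 4-fold, and 11 more than 4-fold. The separation of the groups, taken as the lowest bolting-resistant genotype minus the highest bolting-sensitive genotype and called the gap below, ran from 0.0014 to 2.97 with a median of 0.39. The gap was above 1 in 18 probes, so that each bolting-resistant genotype was more than 2-fold above each bolting-sensitive genotype, and below 0.1 in 17 probes.

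**Figure D1:**
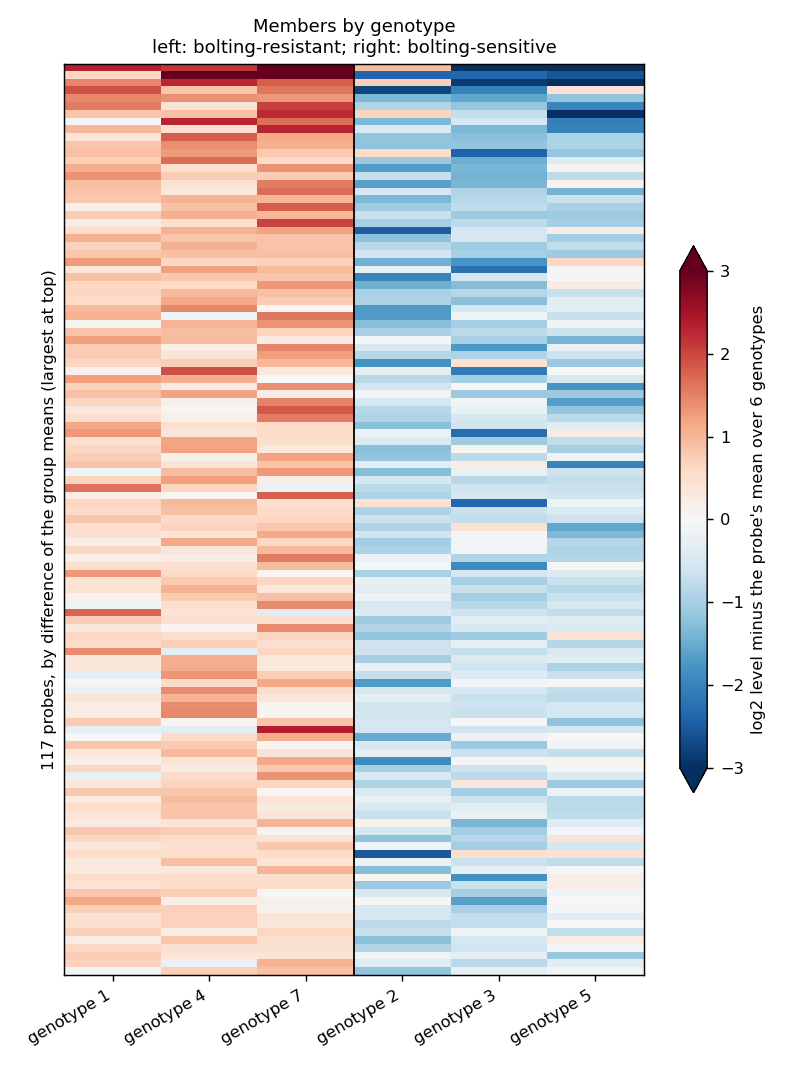
Heat map of the 117 probes (rows, ordered by the difference of the group means, largest at the top) in the 6 genotypes (columns, bolting-resistant genotypes 1, 4 and 7 left of the line and bolting-sensitive genotypes 2, 3 and 5 right of it). Colour is the log2 level minus the probe's mean over the 6 genotypes, and values beyond -3 or 3 take the end colour. Which genotype is palest within a group changes from row to row.

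Taken singly, the conditions of the rule were met more often. The difference alone was above 1 in 484 of 19812 probes (2.44%), and the groups did not overlap, with bolting-resistant genotypes higher, in 720 (3.63%). With the direction turned round, 134 probes (0.676%) were higher in bolting-sensitive genotypes by the same rule. The rule in the direction studied here thus took a share of the probes close to that of its mirror image.

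**Figure D2:**
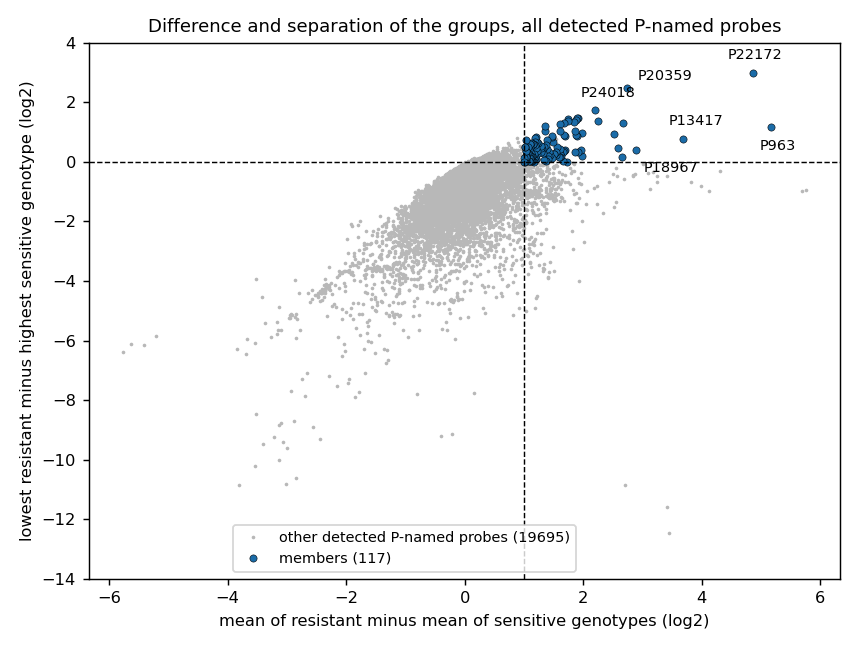
Difference of the group means (x axis, log2, bolting-resistant minus bolting-sensitive) against the gap between the groups (y axis, log2) for the 19812 P-named probes well above background on all 8 arrays. The 117 selected probes (blue) fill the corner right of 1 and above 0 (dashed lines), where P22172 and P963 lie farthest out. The 3 probes set aside by name are drawn in grey.

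Enzymes that cyclize oxidosqualene into triterpenoids, the backbones of plant saponins and waxes, included the probe with the largest difference of log means. P963, named after camelliol C synthase, had relative levels of 4.45, 4.26 and 5.46 in bolting-resistant genotypes 1, 4 and 7, against 3.09, -1.76 and -2.64 in bolting-sensitive genotypes 2, 3 and 5 (4.73 ± 0.65 and -0.44 ± 3.09, mean ± SD, n = 3 genotypes each). Its gap was only 1.18, as genotype 2 stood close to the bolting-resistant genotypes and far above genotypes 3 and 5, the widest range within a group among the 117 probes (5.73). Its difference was 6.93 without genotype 2, 4.51 without genotype 3 and 4.07 without genotype 5, and 4.51 with normexp background correction. As a ratio of linear means it was 3.25, below the 5.28 of P22172, and without genotype 1 it was 5.30, below the 5.76 of P22172. P28322, named after beta-amyrin synthase, had 1.32, 0.79 and 2.13 in genotypes 1, 4 and 7, against -0.074, -0.44 and -0.95 in genotypes 2, 3 and 5 (difference 1.90). P24260, named after a putative terpene synthase, had -1.15, -1.52 and -0.67 in resistant genotypes, against -2.76, -2.85 and -2.55 in sensitive genotypes (difference 1.60). The groups do not overlap for any of these probes, as the rule requires. Genotype 7 was the highest bolting-resistant genotype and genotype 4 the lowest in each.

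The probe table assigns these 3 probes to 1 gene model, Bv7u_181680_otyh, although they match different Arabidopsis genes, so whether they read 1 transcript or several related ones is not settled here. Within the bolting-sensitive group P963 and P28322 gave the same order of genotypes, 2, 3 and 5 from high to low, whereas genotype 5 was the highest for P24260. With normexp background correction the difference of P24260 was 0.94. A further probe of the gene model, P27373, passed the background flag on all 4 bolting-resistant arrays but on 0 of 4 bolting-sensitive arrays and therefore could not enter. Another, P1077, was among those set aside and differed by 1.54.

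Among receptors and signalling proteins, 5 of the 7 listed probes that were well above background were selected, and the other 2 were higher in bolting-sensitive genotypes by the mirrored rule. P22172, named after a wall-associated receptor kinase-like protein, related to membrane kinases that bind pectin in the cell wall of Arabidopsis, had -0.63, 2.06 and 2.09 in bolting-resistant genotypes 1, 4 and 7, against -3.63, -3.60 and -3.83 in bolting-sensitive genotypes 2, 3 and 5 (1.17 ± 1.56 and -3.69 ± 0.12, mean ± SD, n = 3 each). This was the widest gap of all, 2.97, although genotype 1 lay well below genotypes 4 and 7. The bolting-sensitive values were tightly grouped close to the background limit, and the lowest signal of P22172, 1.13 times that limit, was the weakest relative to it among the 117 probes. Its difference of 4.86 became 3.29 with normexp background correction and 5.76 without genotype 1. P13201, a probe of the same gene model named after a related kinase, had -3.46, -0.43 and -0.55 in resistant genotypes, against -6.19, -6.14 and -6.41 in sensitive genotypes and passed the background flag on 0 of 4 bolting-sensitive arrays, so it is not among the 117.

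P11816, named after a leucine-rich repeat protein kinase, had 0.49, 0.62 and 0.41 in bolting-resistant genotypes, against -0.72, -0.39 and -0.94 in bolting-sensitive genotypes, with a difference of 1.19 and a gap of 0.80. P4927, named after a protein with a calcium-dependent lipid-binding domain, had 1.75, 2.70 and 2.15 in resistant genotypes, against 0.49, 1.46 and 0.69 in sensitive genotypes. For it the bolting-resistant genotype 1 and the bolting-sensitive genotype 3 lay only 0.28 apart. P15243, named after a heat shock factor (a transcription factor that acts in heat and other stress), had 2.29, 2.60 and 2.31 in resistant genotypes, against 0.81, 1.06 and 1.27 in sensitive genotypes. P26489, of the same gene model (Bv8_200710_ukur) but with no description, had 2.20, 2.54 and 2.45 in resistant genotypes, against 0.58, 0.70 and 0.88 in sensitive genotypes. Both probes of this model placed the genotypes in the same order within the bolting-sensitive group, genotype 2 lowest and genotype 5 highest, and gaps exceeded 1.

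Hormone genes were represented by 3 of the 7 listed probes that were well above background, and the other 4 went the other way by the mirrored rule. P22988, named after a hydroxyjasmonate sulfotransferase, an enzyme that in Arabidopsis sulfates a jasmonate derivative, had 0.38, 0.31 and 0.31 in bolting-resistant genotypes 1, 4 and 7, against -2.49, -1.02 and -0.55 in bolting-sensitive genotypes 2, 3 and 5. The bolting-resistant genotypes were almost equal and the bolting-sensitive ones spread over 1.94. P3318, of the same gene model (Bv3_058570_nfxw) and named after a steroid sulfotransferase, had -0.30, -0.53 and -0.55 in resistant genotypes, against -2.13, -1.40 and -1.45 in sensitive genotypes, with genotype 2 again the lowest. P15371, named after AFB5, an F-box protein that acts as an auxin co-receptor in Arabidopsis, had 2.48, 2.00 and 2.39 in resistant genotypes, against 1.11, 1.64 and 1.03 in sensitive genotypes, a difference of 1.03 that only just passed the threshold.

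A group of 4 selected probes was named after proteins of RNA processing, small RNAs and chromatin. In this list 10 probes were well above background, of which 5 met the rule (1 of them set aside by name) and 4 met the mirrored rule. P8602, named after the small nuclear ribonucleoprotein D2, a core protein of the spliceosome, had 2.40, 2.18 and 2.20 in bolting-resistant genotypes, against 0.11, 0.83 and 0.32 in bolting-sensitive genotypes (2.26 ± 0.12 and 0.42 ± 0.37, mean ± SD, n = 3 each). Its gap of 1.35 was wider than the spread within either group. P905, named after histone H3, the packaging protein of DNA, had 6.17, 5.54 and 5.64 in resistant genotypes, against 3.78, 4.45 and 4.69 in sensitive genotypes. P23497, named after AGO2, a protein that loads small RNAs and acts in antiviral defence in Arabidopsis, had 2.05, 2.72 and 2.83 in resistant genotypes, against 1.78, 0.91 and 1.26 in sensitive genotypes. P16514, named after the splicing factor RBM22/SLT11, had 0.24, -0.11 and -0.071 in resistant genotypes, against -0.61, -0.77 and -1.63 in sensitive genotypes. For AGO2 the gap was 0.28, the narrowest of this list, with genotype 1 the lowest bolting-resistant and genotype 2 the highest bolting-sensitive genotype.

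Of the 8 probes for redox and sulphur metabolism that were well above background, 3 were selected and 5 met the mirrored rule. P18967 was named after cysteine synthase C1, an enzyme that in Arabidopsis mitochondria uses cysteine to detoxify cyanide. It had 1.21, 0.13 and 0.90 in bolting-resistant genotypes 1, 4 and 7, against -3.45, -2.73 and -0.26 in bolting-sensitive genotypes 2, 3 and 5, a difference of 2.89. Genotype 5 stood far above the other bolting-sensitive genotypes and 0.39 below genotype 4. The difference was 2.24 without genotype 2 and 3.84 without genotype 5, 2.29 as a ratio of linear means and 2.04 with normexp background correction. P28698, a probe of the same gene model, repeated this order with -1.25, -2.63 and -2.08 in resistant genotypes, against -6.14, -5.96 and -3.42 in sensitive genotypes but passed the background flag on only 1 of 4 bolting-sensitive arrays. The others were peroxidases of the secretory class, whose members act on cell wall phenolics. P3154 (peroxidase 52) had 7.32, 7.30 and 8.01 in resistant genotypes, against 6.31, 6.80 and 5.53 in sensitive genotypes. P15141 (peroxidase 67) had -1.07, -1.50 and -0.92 in resistant genotypes, against -2.71, -2.33 and -1.78 in sensitive genotypes. Its difference of 1.12 was 0.72 with normexp background correction. For peroxidase 52 genotype 3 came nearest to the bolting-resistant genotypes, and for peroxidase 67 genotype 5. P24917 and P21683 of this list were higher in bolting-sensitive genotypes (differences -2.31 and -2.57). Both passed the background flag on 0 of 4 bolting-resistant arrays.

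Of the apoplast, defence and cell wall probes that were well above background, 4 of 8 were selected and 4 met the mirrored rule. P12855 was named after TBL31, of a family whose known members acetylate cell wall polysaccharides. Its levels were 1.72, 0.55 and 2.20 in bolting-resistant genotypes, against -0.74, -0.99 and -1.80 in bolting-sensitive genotypes (difference 2.67). P13112, of the same gene model (Bv9_215490_ptez), had 1.66, 1.17 and 2.97 in resistant genotypes, against 0.22, -0.67 and -1.33 in sensitive genotypes (difference 2.52). Both probes gave the same order of the genotypes in both groups, 7, 1, 4 and then 2, 3, 5. Probes for aspartyl proteases, P1169 and P13476, belong to different gene models. P1169 had 3.15, 3.90 and 4.85 in resistant genotypes, against 1.95, 2.25 and 2.05 in sensitive genotypes. The other, P13476, had 0.99, 1.24 and 2.76 in resistant genotypes, against -0.25, -0.062 and -0.26 in sensitive genotypes. In each of them the bolting-sensitive genotypes lay close together, while the bolting-resistant genotypes spread widely with genotype 7 on top. Of the listed probes that failed the background filter, P20782, P24625, P18191 and P12372 were higher in bolting-sensitive genotypes (differences -2.33, -1.81, -3.56 and -1.19). P9355 was higher in bolting-resistant genotypes (2.00), with overlap.

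All 3 probes for ubiquitin and protein turnover that were well above background were selected. P15817, named after BIG, a very large protein that Arabidopsis needs for normal auxin transport, had 1.01, 1.49 and 0.10 in bolting-resistant genotypes, against -1.67, -0.49 and -0.24 in bolting-sensitive genotypes. P8199, named after UEV1D, a partner of ubiquitin-conjugating enzymes, had 4.07, 3.79 and 3.07 in resistant genotypes, against 2.80, 1.87 and 1.44 in sensitive genotypes. P22119, named after the F-box protein PP2-A13, had 2.04, 1.31 and 0.82 in resistant genotypes, against -0.22, 0.23 and 0.31 in sensitive genotypes. Genotype 7 was the lowest bolting-resistant genotype for all of them, with gaps between 0.28 and 0.51. P13220, also on this list and named after an F-box protein, was higher in bolting-sensitive genotypes (difference -1.53). It passed the background flag on only 2 of 4 bolting-resistant arrays and so could not enter.

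All 3 transport probes that were well above background were selected as well. Each is named after a protein of the vacuolar membrane, and 2 of them belong to 1 gene model. P28895, named after AVP1, a proton pump driven by pyrophosphate, had 4.48, 4.81 and 3.83 in bolting-resistant genotypes, against 3.50, 2.50 and 2.51 in bolting-sensitive genotypes. P27398 and P8364, named after tonoplast aquaporins, share a gene model (Bv7u_183100_kzkq). P27398 had 6.85, 6.79 and 6.04 in resistant genotypes, against 5.55, 5.05 and 5.97 in sensitive genotypes. For P8364 the levels were 6.05, 6.05 and 5.45 in resistant genotypes, against 4.80, 4.37 and 5.28 in sensitive genotypes. Both differences were barely above the threshold (1.04 and 1.03), and genotype 5 almost reached genotype 7, with gaps of 0.071 and 0.16. P23926 (an ATPase) and P8889 (an amino acid permease), also on this list, were higher in bolting-resistant genotypes too (differences 4.02 and 1.73). They passed the background flag on only 2 and 0 of 4 bolting-sensitive arrays and so could not enter.

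Both selected probes of the dehydration list were named after DI21, a late embryogenesis protein that drought induces in Arabidopsis, and belong to 1 gene model (Bv7_164380_qugz). P2401 had 6.82, 7.46 and 6.77 in bolting-resistant genotypes, against 6.16, 5.77 and 5.65 in bolting-sensitive genotypes. Its companion P2821 had 3.23, 3.99 and 3.20 in resistant genotypes, against 2.65, 2.27 and 1.94 in sensitive genotypes. Genotype 4 was the highest and genotype 5 the lowest for both. The other 2 probes of this list that were well above background were higher in bolting-sensitive genotypes by the mirrored rule. P20983, which passed the background flag on 0 of 4 bolting-resistant arrays, was also higher in bolting-sensitive genotypes (difference -2.59). Of the translation and organelle list, 1 of 3 was selected, the pentatricopeptide repeat protein P13583 (difference 1.09), of a family that binds organelle RNA.

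The retroelement-like, the acyl, glycosyl and other specialized metabolism and the flowering MADS-box lists held no selected probe. All 4 probes for retroelement-like sequences and all 7 measured probes for acyl, glycosyl and other specialized metabolism enzymes met the mirrored rule. Of 3 flowering MADS-box probes, 2 met the mirrored rule and 1 was set aside by name. These counts describe lists drawn from a table that already held the differing probes, so nearly every listed probe was bound to lie on one side or the other.

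**Figure D3:**
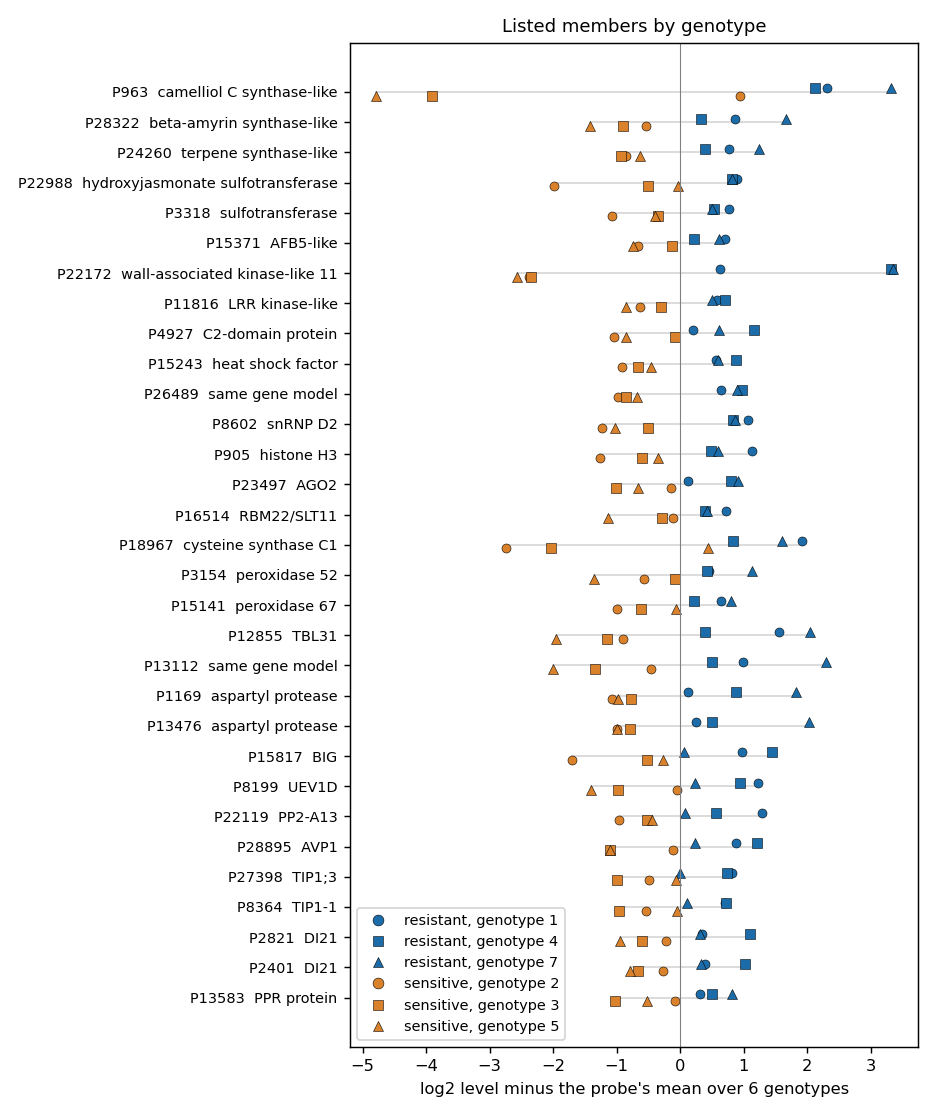
Log2 level minus the probe's mean over the 6 genotypes (x axis) for 31 selected probes with a functional list (rows, by list). Blue symbols are bolting-resistant genotypes 1, 4 and 7, drawn just above each line, and orange symbols bolting-sensitive genotypes 2, 3 and 5, drawn just below it. P963 and P22172 span the widest ranges, and the aquaporin rows (P27398 and P8364) show the narrowest gaps.

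Several probes with a large difference or a wide gap carried a name outside these lists. P13417, by a weak match to a protein related to a COP1-interacting protein, had 3.65, 4.44 and 3.99 in bolting-resistant genotypes, against 2.89, -0.70 and -1.19 in bolting-sensitive genotypes (difference 3.69). Like P963, it was high in genotype 2 and low in genotypes 3 and 5. Its difference was 4.97 without genotype 2, 2.93 without genotype 5 and 2.56 as a ratio of linear means. P20359, named after an uncharacterized protein, had 1.48, 1.40 and 1.34 in resistant genotypes, against -1.31, -1.51 and -1.15 in sensitive genotypes (1.41 ± 0.072 and -1.33 ± 0.18, mean ± SD, n = 3 each). It was the cleanest step among the larger differences, with a gap of 2.49 and ranges of 0.14 among bolting-resistant and 0.36 among bolting-sensitive genotypes.

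P1440, also uncharacterized, had 4.44, 4.68 and 4.64 in bolting-resistant genotypes, against 2.29, 2.79 and 2.98 in bolting-sensitive genotypes. P22212 and P26709, both of gene model Bv9_219410_wsfu and of unknown function, followed. The levels of P22212 were 1.88, 2.26 and 2.04 in resistant genotypes, against 0.36, 0.12 and 0.45 in sensitive genotypes. Those of P26709 were 2.54, 3.12 and 2.76 in resistant genotypes, against 1.05, 0.73 and 1.64 in sensitive genotypes. Genotype 4 was highest and genotype 3 lowest for this pair. P8130, uncharacterized, had 5.32, 5.39 and 5.10 in resistant genotypes, against 3.50, 3.67 and 3.81 in sensitive genotypes. The gap of P8130 was 1.29, against ranges of 0.29 and 0.31 within the bolting-resistant and bolting-sensitive groups. P19295, named after a WD-40 repeat protein, had -0.87, -0.17 and -0.82 in resistant genotypes, against -1.75, -2.42 and -2.09 in sensitive genotypes, a gap of 0.88.

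Gene model Bv9_211960_arex, which carries no description, was read by 3 probes, P11449, P24637 and P2786. P11449 had 4.27, 3.67 and 4.53 in bolting-resistant genotypes 1, 4 and 7, against 1.51, 1.79 and 3.26 in bolting-sensitive genotypes 2, 3 and 5. The differences were 1.97, 1.92 and 1.68, and in all of them genotype 5 lay far above genotypes 2 and 3. The gaps (0.34 to 0.40) were thus much smaller than the differences. P17301 and P772, named after serine-rich proteins (Bv8_197270_rkwh), differed by 1.03 and 1.02, also with genotype 5 on top of the bolting-sensitive group.

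Among probes with no description, P24018 (gene model Bv_09600_otga) had 1.93, 2.51 and 2.17 in bolting-resistant genotypes, against -0.096, -0.073 and 0.18 in bolting-sensitive genotypes, and the gap of 1.76 was the third widest. P23591, known by accession only, had 1.15, 0.58 and 0.58 in resistant genotypes, against -0.89, -1.62 and -0.95 in sensitive genotypes. P20098, likewise, had -0.84, 0.57 and -0.11 in resistant genotypes, against -2.43, -2.52 and -2.20 in sensitive genotypes. Their groups lay 1.47 and 1.36 apart. P1592 (Bv9_208140_cjcm) had 0.46, 2.78 and 2.16 in resistant genotypes, against -0.84, -0.0024 and -1.54 in sensitive genotypes, with genotype 1 far below the other bolting-resistant genotypes, and differed by 3.27 without it. P43, also known by accession only, had 0.16, 1.11 and 0.021 in resistant genotypes, against -1.67, -2.02 and -0.95 in sensitive genotypes. The other probes known by accession only, P24590, P7813, P18 and P8905, differed by 1.56, 1.42, 1.30 and 1.10. P11180 and P13163, named after uncharacterized proteins, differed by 1.62 and 1.44 (0.95 for P11180 with normexp background correction), and P23965 and P11654, with a gene model alone, by 1.38 and 1.18. The gaps of these 8 probes lay between 0.18 and 0.72.

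The 59 probes known by probe name alone had differences between 1.00 and 2.65 (median 1.20) and gaps between 0.0014 and 1.42 (median 0.19), against medians of 1.58 and 0.64 for the 58 in the probe table. The gap was above 1 in 2 of the 59 and in 16 of the 58, and the study chose its table by a test of this same difference. Among the 59, P14448 had the largest difference (2.65), with 2.28, 2.34 and 3.70 in bolting-resistant genotypes, against 2.12, 0.73 and -2.49 in bolting-sensitive genotypes. Genotype 5 was by far the lowest, and genotype 2 lay only 0.16 below genotype 1. The difference was 1.35 without genotype 5, 3.66 without genotype 2 and 1.89 as a ratio of linear means. P19888 and P19929 had wide gaps, 1.42 and 1.36. Levels of P19888 were 3.62, 3.94 and 3.86 in resistant genotypes, against 2.20, 1.79 and 1.80 in sensitive genotypes. Levels of P19929 were 3.12, 3.23 and 3.23 in resistant genotypes, against 1.75, 1.33 and 1.25 in sensitive genotypes. Genotype 2 was the highest bolting-sensitive genotype for both.

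Leaf tissue adhering to a meristem could be approached only through a list of 2 probes, chosen by their descriptions. P3296, for the small subunit of Rubisco, the carbon-fixing enzyme of green tissue, had -1.49, -3.36 and -2.21 in bolting-resistant genotypes, against -1.31, -0.091 and -0.086 in bolting-sensitive genotypes, a difference of -1.86. P18878, described as a protein involved in photoprotection of photosystem II, is among the 117. It had 2.81, 2.55 and 2.61 in resistant genotypes, against 1.34, 1.25 and 1.34 in sensitive genotypes, a difference of 1.35. That description alone does not make P18878 a marker of leaf tissue. The 2 probes thus moved in opposite directions, 1 lower and 1 higher in bolting-resistant genotypes, and for neither did the groups overlap. For P18878 the rule itself fixed the direction and the lack of overlap. Both probes come from the study's table of differing probes, so they cannot show how much leaf tissue adhered. The part of leaf tissue in the differences was not tested.

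How the genotypes varied within a group bears on the rule through the overlap condition and through the means. A single outlying genotype can carry the difference past the threshold. P11304 had 1.51, 1.49 and 1.53 in resistant genotypes, against -1.56, 1.45 and 1.39 in sensitive genotypes (difference 1.08). The spread among the 117 probes is therefore not independent of the rule. The SD among the 3 genotypes had a median of 0.43 in the bolting-resistant group and 0.47 in the bolting-sensitive group over the 117 probes, against 0.31 and 0.28 over all 19812. The SD was larger in the bolting-sensitive group in 72 of 117 probes (61.5%), against 44.5% of all 19812. Only 20 of the 117 had a gap wider than the range within either group, among them P22172, P20359, P24018, P8602, P22212, P18878 and both probes of the heat shock factor gene model. For the remaining 97, genotypes of at least 1 group differed from each other by more than the groups were apart.

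In 56 of the 117 probes the highest bolting-sensitive genotype lay nearer to the lowest bolting-resistant genotype than to the next genotype of its own group. That genotype was 2 in 12 of them, 3 in 17 and 5 in 27. In 51 probes the lowest bolting-resistant genotype lay nearer to the highest bolting-sensitive one than to its own group, and it was genotype 1 in 20, genotype 4 in 17 and genotype 7 in 14. Neither held for 52 probes.

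No genotype alone bordered the gap. The lowest bolting-resistant genotype was genotype 1 in 44 probes, 4 in 39 and 7 in 34, or 37.6%, 33.3% and 29.1%, against 39.0%, 32.6% and 28.4% of all 19812 probes. The highest bolting-sensitive genotype was 5 in 57 probes, and 2 and 3 in 30 each, so that genotype 5 bordered the gap in 48.7% of the selected probes, against 39.6% of all. Over the 9 pairs of a bolting-resistant with a bolting-sensitive genotype, the median difference of the 117 probes ran from 1.11 (genotype 1 minus genotype 5) to 1.65 (genotype 7 minus genotype 2). In those pairs between 70 and 94 of the probes differed by more than 1.

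Probes assigned to the same gene model allow patterns to be compared through different oligonucleotides on the same arrays, whether or not they read 1 transcript. Of the 49 probes with a gene model, 20 fell into 9 models with more than 1 selected probe, giving 13 pairs. To leave out the difference that the rule used, each value was taken relative to the mean of its group, and the profiles over the 6 genotypes were correlated. Pearson's r had a median of 0.91 over the 13 pairs (0.057 to 0.99), against 0.026 over all 6786 pairs of selected probes. It was above 0.9 in 7 pairs, and the lowest value was that of P963 with P24260. These correlations are descriptions over 6 genotypes that share libraries and arrays.

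Some of the closest profiles joined named with unnamed probes, and others joined unnamed probes only. Taking as close a pair with r above 0.95 whose profiles and differences never departed by 0.3 or more, 41 of the 6786 pairs were close, and 4 of these were of the same gene model. They involved 35 probes. P17912, P18853, P2052 and P24712, known by probe name alone, were close to each other and to both DI21 probes, with differences between 1.06 and 1.22 and genotype 4 highest in each. P11069, P19684 and P22672 were close to both aquaporin probes, with r between 0.98 and 1.00. P188, of unknown function, and P18590 were close as well (r = 1.00). P188 had 3.25, 4.44 and 3.11 in resistant genotypes, against 2.42, 2.41 and 2.50 in sensitive genotypes. P18590 had 3.56, 4.76 and 3.39 in resistant genotypes, against 2.78, 2.67 and 2.79 in sensitive genotypes, and genotype 4 stood above all others in both. These groupings were noticed after the values were seen, and the files do not say whether such probes read the same transcript.

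**Figure D4:**
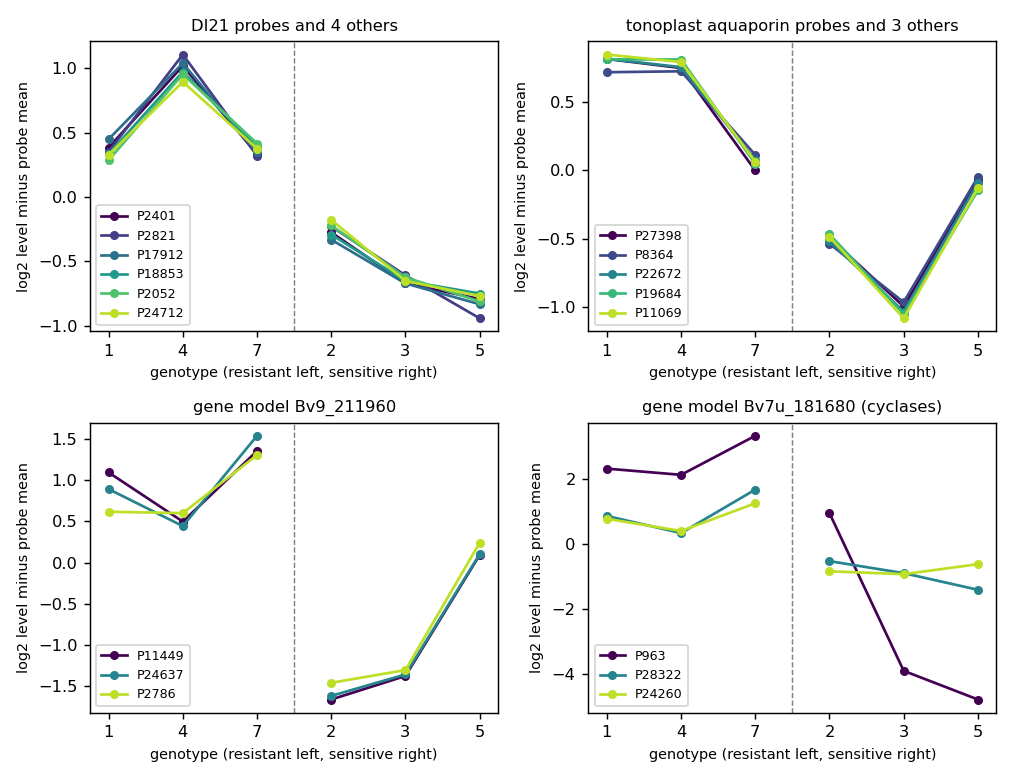
Log2 level minus the probe's mean over the 6 genotypes (y axis) for 4 sets of probes, with bolting-resistant genotypes 1, 4 and 7 left of the dashed line and bolting-sensitive genotypes 2, 3 and 5 right of it. Lines join the values of 1 probe and imply no order of genotypes. The DI21 set and the aquaporin set overlay closely, and the 3 probes of Bv9_211960_arex somewhat less so. P963 departs from the other cyclase probes in both groups.

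Technical spread could be read from the duplicate arrays. The 2 arrays of genotype 7 differed by a median of 0.066 over the 117 probes (at most 0.26), and those of genotype 3 by a median of 0.075 (at most 0.60), against 0.061 and 0.053 over all 19812 probes. The gap was smaller than the difference between the arrays of genotype 7 in 14 probes and of genotype 3 in 17. With all 8 arrays taken singly, the groups still did not overlap in 113 probes, and they overlapped in P1058, P8745, P27485 and P2059.

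**Figure D5:**
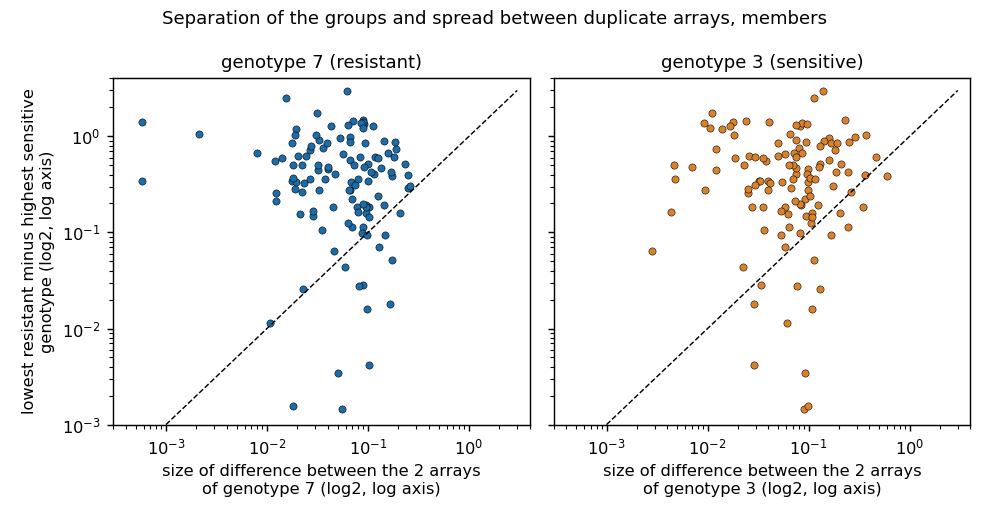
Gap between the groups (y axis) against the size of the difference between the duplicate arrays of genotype 7 (left) and genotype 3 (right) for the 117 probes, in log2 units on log axes. Points below the dashed line of equality, 14 on the left and 17 on the right, have a gap smaller than the difference between duplicate arrays.

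The lowest signal of a selected probe on any array, set against the lowest signal that was well above background on that array, was 15.9 times as high in the median, more than 10 times in 64 probes and less than 2 times in 12. The thresholds cut through a continuum. Just inside the difference threshold lay P18088, P20914 and P16514 (1.00, 1.01 and 1.02), and just outside it P14335, P10176 and P1227 (0.996, 0.995 and 0.988). Just inside the overlap threshold lay P1655, P18088 and P9254 with gaps of 0.0014, 0.0016 and 0.0034, and just outside it P9348, P26642 and P8262 with gaps of -0.018, -0.026 and -0.029. P1655 shows how such a case looks, at 6.17, 5.51 and 5.59 in bolting-resistant genotypes, against 3.46, 3.14 and 5.51 in bolting-sensitive genotypes, where genotype 5 is level with genotype 4. Its difference was 1.72, and 2.46 without genotype 5.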

How the data were processed

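Total RNA of 1 shoot apical meristem per genotype was hybridized to a custom Agilent array in 1 colour. The authors deposited the scanner output of Agilent Feature Extraction (10.7), which holds linear, background-subtracted spot intensity without normalization between arrays. A deposited table of the authors' log2 values (75th percentile per array, median per probe) served only as an alternative. Here, log2 intensity was taken relative to the 75th percentile of the 54252 non-control spots of each array, and spots of 1 probe and then duplicate arrays were averaged. Signals counted as well above background by the software's flag. Precision is limited by having 3 genotypes in each group. Members and lists were chosen with earlier results of these data known, and the difference was not tested.

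Named probes are those with a description or gene model in the study's supplementary probe table, the 8 largest differences, the 8 widest gaps and the 3 on either side of each threshold. The annotation columns right of the gene model were not used. Alternatives were quantile normalization, scaling to the array median or to E1A spike-in probes (8 probes, chosen after seeing the data), normexp background correction on median spot signals with an offset of 50 (limma 3.58.1, R 4.3.3, data.table in version 1.17.8), a single array for genotypes 7 and 3, the authors' table, a ratio of linear means, other filters and thresholds, and leaving out each genotype. The rule was tested on simulated data. Python 3.11.15, numpy 2.4.6, pandas 2.3.3, scipy 1.17.1 and matplotlib 3.10.9 were used. Methylation, bisulphite, qRT-PCR and Cot sequencing data were not analysed here.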

Additional observations from a re-analysis of the deposited data

How the results depend on the processing

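Over 14 alternatives that recompute the values of the 117 probes, their median difference lay between 1.18 and 1.47, against 1.35. Their direction was fixed by the choice of groups that do not overlap and is not counted as stability. Of 826 recomputed differences of 59 named probes, 812 moved by less than the spread between genotypes, and 14 by more (13 of them with normexp background correction). In 21 cases, from 9 probes, the fold changed by more than 1.5 times, among them P963 with a ratio of linear means (3.25, against 5.17) and P22172 with normexp (3.29, against 4.86). Scaling to the array median shifted the median of all probes to 0.13.

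Of the 117, 115 met the rule after quantile normalization, 112 after median scaling, 113 with either single array of genotypes 7 and 3, 109 in the authors' table and 103 with a ratio of linear means. With normexp, 81 did. The 36 lost had a median lowest signal of 3.03 times the background limit, against 35.0 times in those retained. Named probes whose difference fell below 1 with normexp included P11654 (0.67), P13583 (0.70), P15141 (0.72), P3318 (0.80) and P16514 (0.80). Others were P15371 (0.93), P24260 (0.94), P11180 (0.95), P772 (0.95), P23965 (0.96) and P11816 (0.99). The same held for P9254 (0.64), P20914 (0.68) and P18088 (0.84), which lie just inside a threshold of the rule. With spike-in scaling 77 did, and 37 of the 40 lost overlapped with genotype 4 as the lowest bolting-resistant genotype. The log2 level of the spike-in probes was 5.31 in genotype 4, against 4.50 (genotype 1) to 4.95 (genotype 5) in the others.

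The number of probes that met the rule moved by more than 1.5 times with no background filter (198), a 1.5-fold threshold (263), a 3-fold threshold (40) or overlap allowed (481). Leaving out each genotype in turn gave between 158 (without genotype 7) and 359 (without genotype 1), since fewer genotypes then have to be separated, and between 96 and 106 of the 117 still met the rule. Without genotype 4 the count was 231, and without genotypes 2, 3 and 5 it was 270, 207 and 252. No paired analysis was possible because the genotypes of the groups share no plant or batch label. The 12 probes whose lowest signal lay under 2 times the background limit are the least well measured.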
